A study of Rattus norvegicus with 4 samples.

Results

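The genes described here encode the smooth muscle contractile apparatus (Acta2, Tagln, Cnn1, Myh11 and Mylk) and the transcription factor SRF with its cofactors (Srf, Myocd, Mkl1 and Mkl2). They were chosen by symbol, and 8 of these 9 genes were found among the 15731 genes with RPKM values, in which reads are divided by gene length and by library size. Mkl2, also known as Mrtfb, was not found by either symbol, and its level was not analysed here. The cells were neonatal ventricular cardiomyocytes of wild-type Wistar rats at postnatal day 1, transfected with a mimic of hsa-miR-25-3p, hsa-miR-93-5p or hsa-miR-106b-5p, or with cel-miR-67, a miRNA of the worm C. elegans, which served as control. The labels give the mimic dose as 25 nM in one protocol and 25 mM in another, and RNA was harvested 72 h after transfection according to the protocols, while a drawing of the workflow gives a shorter time. One protocol gives the age as day 0. Each of the 4 mimics has 1 library, so no difference between mimics has a replicate check and no p-value is given.

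Smooth muscle cells contract when myosin light chain kinase, the product of Mylk, phosphorylates the light chain of smooth muscle myosin (Myh11), which then pulls on filaments of smooth muscle alpha-actin (Acta2). Transgelin (Tagln) and calponin (Cnn1) bind these filaments, and calponin restrains the myosin ATPase. The genes are controlled by SRF, which binds a DNA element named the CArG box together with myocardin (Myocd) in muscle cells or with the myocardin-related factors encoded by Mkl1 and Mkl2, which respond to free actin. Immature cardiomyocytes are known to carry some smooth muscle transcripts, as do activated fibroblasts and the mural cells of vessels, so in a bulk culture their RNA can come from several cell types.

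The 3 mimics fall into 2 groups by seed, the bases of a miRNA that pair with its targets, which is why their mature sequences are shown. The rat sequences below come from RefSeq (build GRCr8, chromosome 12, minus strand), with bases 2 to 8 in capitals, and the mimics themselves carry human names.
rno-miR-106b-5p, chr12:22157103-22157123: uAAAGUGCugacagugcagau
rno-miR-93-5p, chr12:22156894-22156916: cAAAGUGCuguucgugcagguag
rno-miR-25-3p, chr12:22156652-22156673: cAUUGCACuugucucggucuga
miR-106b and miR-93 share the seed AAAGUGC, and miR-25 has the seed AUUGCAC. Whether transcripts of the genes described here hold matching sites was not analysed here.

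Whole reads were recovered from the RPKM values, and listed genes held between 15175185 and 18797234 reads per library. The methods state a far smaller number of reads per sample, and the sources used here do not resolve this difference. A fold is the ratio of RPKM values, mimic over cel-miR-67, wherever both RPKM values exceed 1.0, and a gene past 1.3-fold is called up or down. The 95% exact (Clopper-Pearson) intervals come from the recovered reads and cover counting error only, not differences between cultures. Over all genes tested, miR-106b gave 11.9% called up and 12.7% down, miR-93 15.1% and 15.6%, and miR-25 19.3% and 22.6%, and the median log2 fold lay between -0.01 and 0.00. Scaling to the reads on listed genes in place of the library size behind the RPKM values raised these medians by 0.08, 0.15 and 0.15. It also turned 1339 up and 1437 down calls after miR-106b into 1882 and 1026, 1707 and 1762 after miR-93 into 2836 and 1089, and 2166 and 2532 after miR-25 into 3284 and 1782.

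With miR-25, 5 of the 7 members tested were called up and none down, among them 4 of the 5 contractile genes (Acta2, Tagln, Cnn1 and Myh11) and the cofactor gene Myocd. With miR-106b, Cnn1 was called up and Myh11 down. With miR-93, Mylk was called up and Cnn1 and Myh11 down. Among 7 members, 1 call in a direction is near the all-gene shares given above for both of these mimics. The down calls after miR-93 were 2 of 7, where 15.6% of all genes tested were called down. After miR-25, 19.3% of all genes tested were called up and 22.6% down. The median log2 fold of the 7 members was 0.99 after miR-25, -0.11 after miR-106b and -0.30 after miR-93. Mkl1, at an RPKM of 0.84 in the control, was below the limit for these calls.

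**Figure D1:**
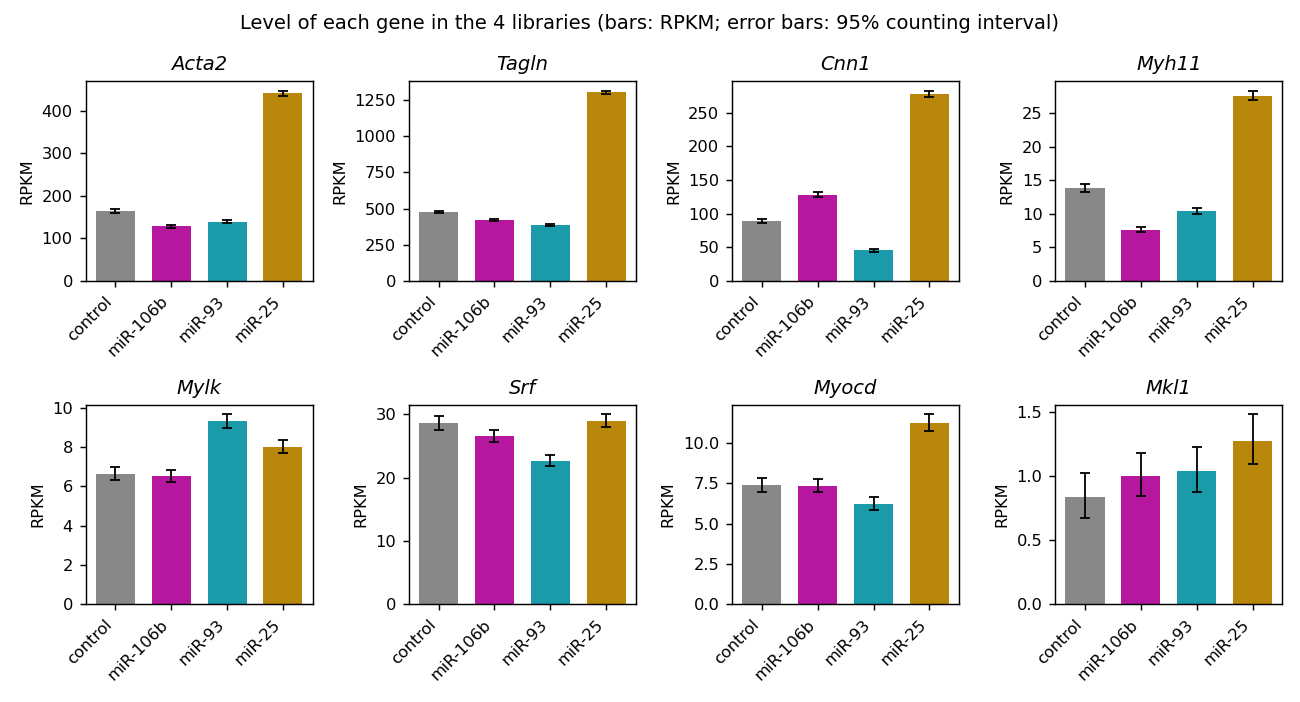
RPKM (y axis, from 0) of the 8 genes in the control library and those of the 3 mimics, 1 bar per library, with 95% exact Poisson intervals of the reads as error bars. The miR-25 bar is the highest for each gene except Mylk, where the miR-93 bar is highest at 9.31.

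Acta2, the actin of the smooth muscle thin filament, had an RPKM of 440.2 after miR-25, 139 after miR-93, 128 after miR-106b and 164 after cel-miR-67, from 16687, 5281, 5291 and 5165 reads. The miR-25 library stood apart from the other 3, which lay within 1.28-fold of each other. The log2 fold was 1.43 after miR-25 (95% exact interval 1.38 to 1.47), or 2.69-fold, and 120 of the 11198 genes tested had a higher one. With miR-106b it was -0.36 (-0.41 to -0.30) and after miR-93 -0.24 (-0.29 to -0.18), neither past 1.3-fold. Actin genes encode nearly identical proteins. How any reads shared between these genes were counted is not given in the sources used here, so the split between Acta2 and the other actins is uncertain.

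The promoters of Acta2 and Srf are shown because SRF binds CArG boxes in both kinds of gene. The 250 bases upstream of each start site were taken from RefSeq (GRCr8), which gave a promoter for 6 of the 9 genes and none for Tagln, Myh11 and Myocd. A CArG box was searched as 2 C, 6 bases of A or T and 2 G, a pattern that reads alike on both strands, and also with 1 C or G among the 6 bases. The capitals mark the matches.
Acta2, chr1:241172504-241172753, minus strand: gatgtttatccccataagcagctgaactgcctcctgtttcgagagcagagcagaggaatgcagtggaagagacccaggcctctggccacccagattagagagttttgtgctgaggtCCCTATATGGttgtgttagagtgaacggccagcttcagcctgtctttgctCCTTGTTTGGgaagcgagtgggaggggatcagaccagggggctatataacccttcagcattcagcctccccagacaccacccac
Srf, chr9:21923826-21924075, plus strand: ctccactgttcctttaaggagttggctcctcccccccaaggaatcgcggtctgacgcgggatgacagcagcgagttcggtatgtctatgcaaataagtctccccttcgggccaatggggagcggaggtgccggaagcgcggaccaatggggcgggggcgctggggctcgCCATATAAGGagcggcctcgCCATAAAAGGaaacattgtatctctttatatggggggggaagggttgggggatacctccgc
Acta2 holds 2 matches with 1 substitution each, CCCTATATGG starting 134 bases and CCTTGTTTGG starting 84 bases upstream of the start site. Srf holds 2 matches without a substitution, CCATATAAGG at 81 bases and CCATAAAAGG at 61 bases. Of 33469 rat promoter windows of this length, 501 (1.5%) hold a match without a substitution and 6.84% a match with 1. The windows of Cnn1, Mylk, Mkl1 and Mkl2 hold none, which says only that these letters are not in this window.

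Tagln, the gene of transgelin, had the highest level of the 8 genes in every library. Its RPKM was 1306 after miR-25, 388 after miR-93, 422 after miR-106b and 478 after cel-miR-67, from 56861, 16921, 20077 and 17337 reads. Again the miR-25 library was alone above the control, by a log2 fold of 1.45 (1.42 to 1.47) or 2.73-fold, with 112 of 11198 genes higher. The log2 folds after miR-106b, at -0.18 (-0.21 to -0.15), and after miR-93, at -0.30 (-0.33 to -0.27), lay below 0 by more than counting error but not past 1.3-fold.

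Cnn1, the gene of smooth muscle calponin, differed most between the mimics. Its RPKM was 278 after miR-25, 45.6 after miR-93, 128 after miR-106b and 88.8 after cel-miR-67, from 11367, 1868, 5718 and 3020 reads. Every step in the order miR-25, miR-106b, control and miR-93 was larger than counting error. The log2 fold was 1.65 after miR-25 (1.59 to 1.71), or 3.13-fold, and 55 of 11198 genes had a higher one. It was 0.53 after miR-106b (0.47 to 0.59) and -0.96 after miR-93 (-1.05 to -0.88), which is 1.95-fold lower, so the mimics that share a seed lay on opposite sides of the control.

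Myh11, the smooth muscle myosin heavy chain, had an RPKM of 27.6 after miR-25, 10.4 after miR-93, 7.62 after miR-106b and 13.8 after cel-miR-67, from 5375, 2039, 1620 and 2244 reads. It was higher than the control in the miR-25 library and lower in both others, with all steps beyond counting error. Its log2 fold was 0.99 after miR-25 (0.92 to 1.07), -0.86 after miR-106b (-0.95 to -0.77) and -0.41 after miR-93 (-0.49 to -0.32). The call after miR-93, 1.33-fold lower, lay just past the cutoff and was lost when libraries were scaled to the reads on listed genes, at -0.26.

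Mylk, the kinase that starts smooth muscle contraction, moved otherwise. Its RPKM was 8.02 after miR-25, 9.31 after miR-93, 6.52 after miR-106b and 6.65 after cel-miR-67, from 2211, 2570, 1962 and 1524 reads. The control and miR-106b libraries did not differ beyond counting error, with a log2 fold of -0.03 (-0.12 to 0.07). It was called up after miR-93, at 0.49 (0.39 to 0.58), while the log2 fold after miR-25 was 0.27 (0.18 to 0.37), not past 1.3-fold. Scaled to the reads on listed genes, the value after miR-25 was 0.42, past the cutoff.

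**Figure D2:**
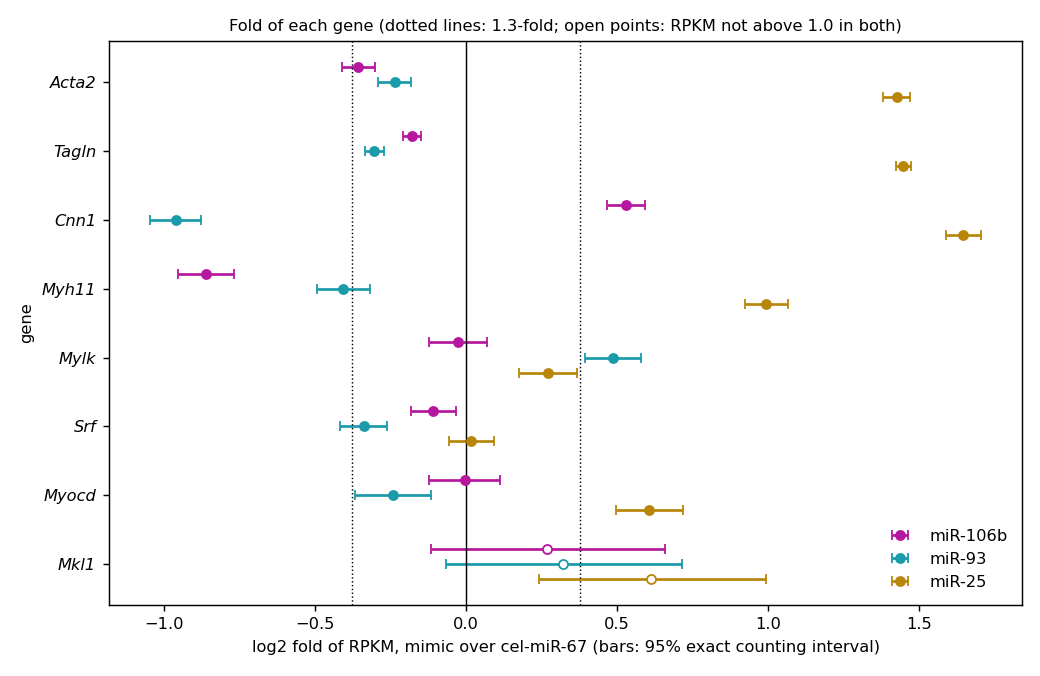
Log2 fold of RPKM over cel-miR-67 (x axis) for the 8 genes (y axis) after miR-106b, miR-93 and miR-25, with 95% exact counting intervals as bars and 1.3-fold as dotted lines. Acta2, Tagln, Cnn1 and Myh11 lie between 0.99 and 1.65 after miR-25, and Cnn1 lies on opposite sides of 0 after miR-106b and miR-93.

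Srf, the transcription factor itself, was among the members that differed least. Its RPKM was 29.0 after miR-25, 22.6 after miR-93, 26.5 after miR-106b and 28.6 after cel-miR-67, from 3239, 2535, 3241 and 2663 reads. The miR-25 and control libraries did not differ beyond counting error, with a log2 fold of 0.02 (-0.06 to 0.09). The values were -0.11 after miR-106b (-0.18 to -0.03) and -0.34 after miR-93 (-0.42 to -0.26), neither past 1.3-fold. Scaled to the reads on listed genes, the Srf log2 fold was 0.17 after miR-25, outside its counting interval. It was then -0.03 after miR-106b and -0.19 after miR-93, and none of these was past 1.3-fold. Summed over the 5 contractile genes, RPKM was 26.3 times that of Srf in the control library, 26.1 after miR-106b, 26.2 after miR-93 and 71.1 after miR-25. These are ratios within a library, which no library scaling changes. Tagln made up most of each sum, with an RPKM of 478 of 752 in the control library and 1306 of 2059 after miR-25. The ratios therefore say little about the other contractile genes, such as Cnn1 and Myh11, which were called after miR-106b and miR-93.

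Myocd, the gene of the muscle cofactor myocardin, had an RPKM of 11.2 after miR-25, 6.24 after miR-93, 7.35 after miR-106b and 7.38 after cel-miR-67, from 1871, 1041, 1336 and 1022 reads. It was highest in the miR-25 library, with a log2 fold of 0.61 (0.50 to 0.72) or 1.52-fold, and was called up there. With miR-106b the log2 fold was -0.01 (-0.12 to 0.11), so no difference was detectable at this depth, and after miR-93 it was -0.24 (-0.37 to -0.12). Mkl1, which encodes the actin-regulated cofactor also known as Mrtfa, was scarce, with an RPKM of 1.28 after miR-25, 1.04 after miR-93, 1.01 after miR-106b and 0.84 after cel-miR-67, from 171, 140, 147 and 93 reads. Its log2 fold was 0.61 after miR-25 (0.24 to 0.99), 0.27 after miR-106b (-0.12 to 0.66) and 0.32 after miR-93 (-0.07 to 0.72), and none of these was called, since the control level was not above 1.0. No neighbours in the order of its 4 levels differed beyond counting error.

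The libraries of miR-93 and miR-106b can be set against each other without the control. In this comparison 7.3% of 11391 genes were called up in miR-93 and 8.21% down, and among the 8 members Myh11 and Mylk were called up and Cnn1 down. Cnn1 was 2.81-fold lower after miR-93 than after miR-106b, a log2 fold of -1.49 (-1.57 to -1.42), and 26 genes had a lower one. Myh11 was at 0.46 (0.36 to 0.55) and Mylk at 0.51 (0.43 to 0.60), each higher after miR-93. Acta2, at 0.12 (0.07 to 0.18), and Tagln, at -0.12 (-0.15 to -0.09), differed by more than counting error but not past 1.3-fold.

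Within each library the smooth muscle genes can be set against other genes of their families, a comparison chosen after their values were seen. Of the summed RPKM of 6 actin genes, Acta2 held 5.76% after miR-25, 2.88% after miR-93, 1.77% after miR-106b and 1.73% after cel-miR-67. The cardiac actin Actc1 held 64.8%, 56.7%, 69.7% and 74.9% in the same order. Actg2, the other smooth muscle actin gene, did not follow Acta2. It held 0.370% after miR-25 and 0.368% after cel-miR-67, at a log2 fold of -0.30 (-0.42 to -0.18) after miR-25. The Acta2 share was higher after miR-93 although its RPKM was not, as the RPKM of Actc1 was 7073 in the control library and 2733 after miR-93. Cnn1 held 38.0% of the calponin RPKM in the control library, 39.7% after miR-106b, 20.6% after miR-93 and 65.5% after miR-25. Tagln held 73.3% of the RPKM of Tagln and Tagln2 in the control library and 89.7% after miR-25, against 67% after miR-106b and 70.3% after miR-93. Myh11 stayed a minor myosin heavy chain, with 0.503% in the control library and 1.70% after miR-25. Mylk held 4.97% of the myosin light chain kinase RPKM in the control library and 12.2% after miR-25, where the cardiac kinase gene Mylk3 was at an RPKM of 57.6, against 127 in the control.

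**Figure D3:**
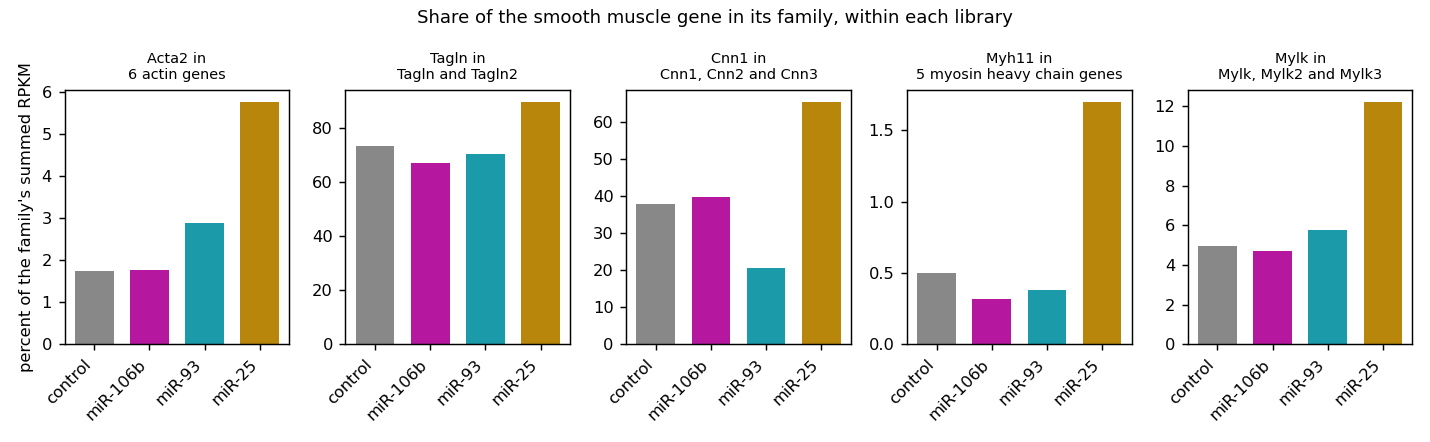
Share of Acta2, Tagln, Cnn1, Myh11 and Mylk in the summed RPKM of their gene families (y axis, percent, from 0) in each of the 4 libraries. Each of the 5 shares is highest after miR-25, and the Cnn1 share is lowest after miR-93 at 20.6%.

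Of 20 other smooth muscle genes listed for comparison, 19 were found once. With miR-106b none of 18 tested was called up and 5 were called down, and after miR-93 1 was called up and 10 down, at medians of -0.25 and -0.58. The shares of all genes tested were 11.9% up and 12.7% down with miR-106b, and 15.1% and 15.6% with miR-93. With miR-25, where 19.3% of all genes tested were called up and 22.6% down, 6 of 19 were called up and 3 down. Of these 19, 9 lay above 0 and 10 below, with a median of -0.05. Scaled to the reads on listed genes, 8 were up and none down, and the median was positive. Mrvi1, the gene of the cGMP kinase substrate IRAG, was at 1.52 after miR-25 (1.33 to 1.71), -0.99 after miR-106b (-1.26 to -0.72) and -0.94 after miR-93 (-1.21 to -0.66), the same directions as Myh11. Des, the muscle intermediate filament protein desmin, was at 0.42, -0.48 and -0.84 in the same order. The other 4 genes called up after miR-25, named after their values were seen, were Kcnmb1, Actn1, Ppp1r12b and Tpm2, at 0.96, 0.69, 0.51 and 0.43. The 3 called down were Synpo2, Nexn and Smtn, the latter pair at -0.46 each and also named after their values were seen. Synpo2, an actin-binding Z-disc protein, was lower after each mimic, at -0.96 after miR-106b, -1.67 after miR-93 and -0.48 after miR-25. Itga8, an integrin of smooth muscle and fibroblasts, was at -0.94, -0.60 and -0.05 in the same order.

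A second list held 16 further SRF targets that the myocardin-related factors are known to drive. With miR-93, 11 of 16 were called down and 1 up, after miR-106b 7 and 1, and after miR-25 3 and 2, and the medians were -0.64, -0.33 and -0.02. Of all genes tested, 15.6% were called down and 15.1% up with miR-93, and 12.7% and 11.9% with miR-106b. For miR-25 these shares were 22.6% and 19.3%, and those of the list were no larger. Scaled to the reads on listed genes, the list gave 4 down and 1 up after miR-106b. After miR-25 it then gave 1 down and 4 up, with a positive median. At a cutoff of 1.5-fold, 2 of the list were down and none up after miR-106b. Fhl1, a LIM domain protein of striated muscle, had the largest fold of this list, with an RPKM of 263 after miR-25, 47.3 after miR-93, 163 after miR-106b and 259 after cel-miR-67 and a log2 fold of -2.45 after miR-93 (-2.49 to -2.41). Acta1, the skeletal actin gene, was at -1.79 after miR-93, -0.32 after miR-106b and 0.33 after miR-25. Ankrd1, a stress-responsive sarcomere protein, was lower after all 3 mimics, at -1.66 after miR-93, -0.67 after miR-106b and -0.48 after miR-25. Fhl2 went the other way, at -1.40 after miR-25 (-1.47 to -1.33), 0.52 after miR-106b and 0.67 after miR-93. Of 9 immediate early SRF targets that respond through ternary complex factors, 3 were tested, and Fos was at -0.51 after miR-106b, -0.72 after miR-93 and -0.02 after miR-25. Junb was at 0.62 after miR-25 and Egr1 at 0.46 after miR-93 and -0.44 after miR-25, the latter from 107 reads after cel-miR-67, and their other values lay within 1.3-fold.

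Of 9 tested genes of other SRF cofactors and modulators, 3 were called up and 3 down after miR-25, with a median of -0.18, where 19.3% of all genes tested were called up and 22.6% down. Abra, which helps move the myocardin-related factors into the nucleus, was at -1.06 after miR-25 (-1.33 to -0.79) and -0.83 after miR-93 (-1.09 to -0.57). Hopx, a homeodomain protein that antagonizes SRF in the heart, was at -0.90 after miR-25 (-1.13 to -0.68), and Scai, a repressor of the MKL1 protein, at 0.61 (0.42 to 0.81). Elk3, a ternary complex factor, was at 0.66 after miR-25 (0.45 to 0.86). With miR-106b 1 of these 9 genes was called down and none up, and after miR-93 2 and none, with medians of 0.00 and -0.11. Of all genes tested, 12.7% were called down and 11.9% up with miR-106b, and 15.6% and 15.1% with miR-93. Against all-gene shares of 19.3% up and 22.6% down, miR-25 gave 2 up and 1 down of 10 tested genes of myosin light chain control. These were Ppp1r12a, the targeting subunit of myosin phosphatase, at 0.79 (0.74 to 0.83), the calmodulin gene Calm2 at 0.49, and Mylk3 at -1.14 (-1.20 to -1.09). With miR-106b 1 of these 10 was called down and none up, and after miR-93 none was called, and the medians were 0.07 after miR-25, -0.01 after miR-106b and -0.14 after miR-93.

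**Figure D4:**
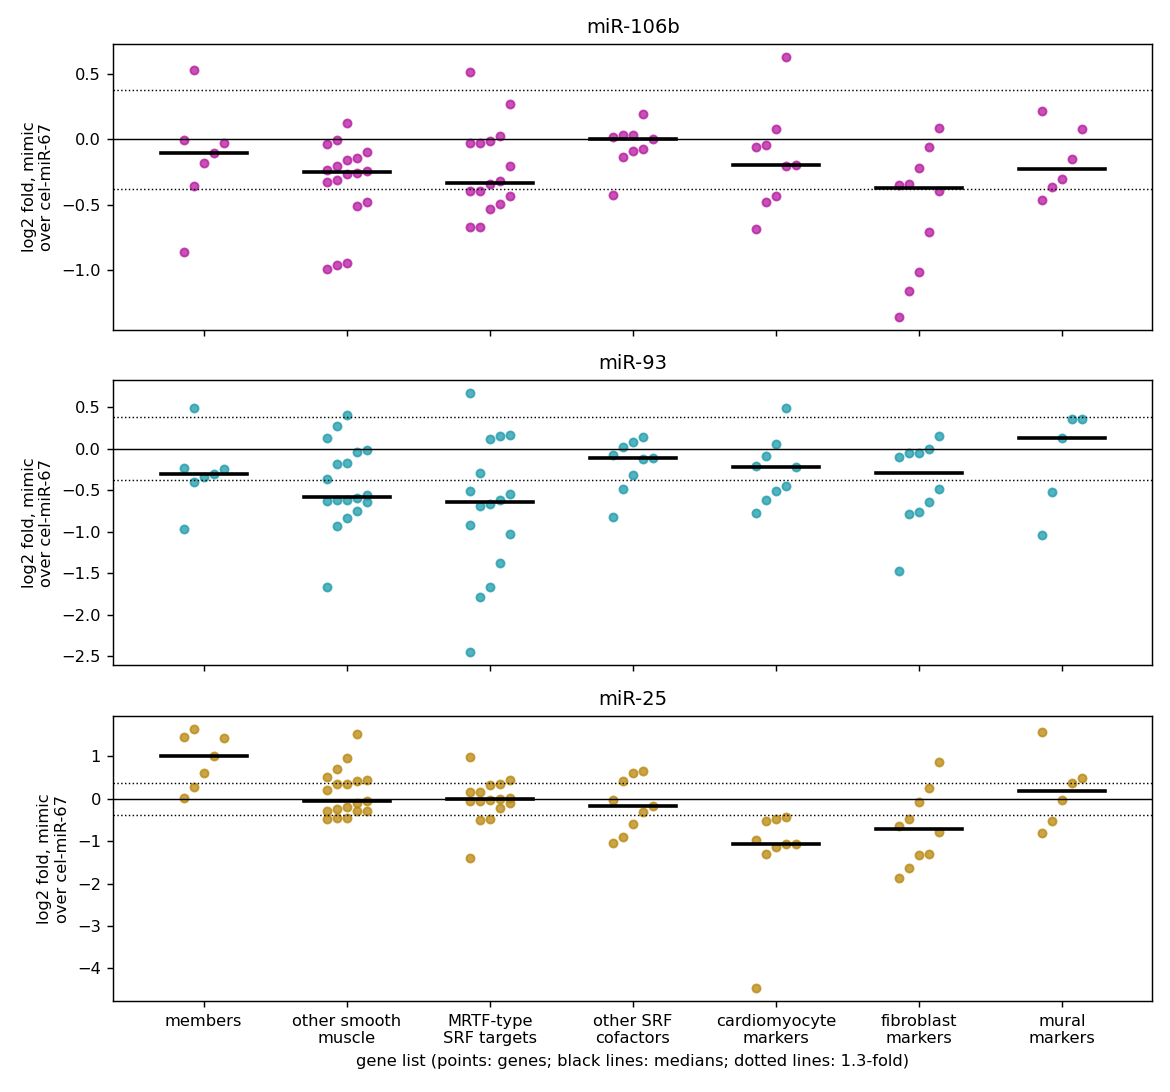
Log2 fold over cel-miR-67 (y axis) of the tested genes of 7 lists (x axis) in 3 panels, 1 for each mimic, with 1 point per gene, medians as black lines and 1.3-fold as dotted lines. With miR-25 the members have a median of 0.99 and the cardiomyocyte markers one of -1.07.

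Markers of the cell types in the cultures moved too. All 9 cardiomyocyte markers, such as Myh6 and Tnnt2, were present in every library, but after miR-25 all 9 were called down, with a median of -1.07 and a summed RPKM of 7965 against 15552 in the control. Tnni3 was lowest, at -4.47. With miR-106b 3 were called down and 1 up, and after miR-93 4 and 1, with summed RPKM of 14733 and 12260. The labels name ventricular cardiomyocytes, yet all 10 fibroblast markers were present as well, with a summed RPKM of 350.0 after miR-25, 767 after miR-93, 664 after miR-106b and 852 after cel-miR-67. Of these 10, 7 were called down and 1 up after miR-25, with 8 below 0 and 2 above. With each of the other mimics 5 were called down and none up, with 9 below 0 and 1 above. Over all genes tested, 22.6% were called down after miR-25, 15.6% after miR-93 and 12.7% after miR-106b. Col1a2 was at -1.87 after miR-25, and Dcn at -1.35 after miR-106b and -1.47 after miR-93.

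Of 6 tested markers of mural cells, which are rich in the contractile genes described here, 2 were called up and 2 down after miR-25. Of all genes tested, 19.3% were called up and 22.6% down there, with the shares for the other mimics given above. Summed RPKM over 7 mural markers was 197 after miR-25, 126 after miR-93, 148 after miR-106b and 166 after cel-miR-67. Most of each sum was Mcam alone, with an RPKM of 154 after miR-25 and 119 after cel-miR-67. Its log2 fold after miR-25 was 0.37, not past 1.3-fold, so the sum says little about the other mural markers. Rgs5 was at 1.58, from 41 reads in the control library, and Pdgfrb at 0.49 after miR-25, while Cspg4 was at -0.82 and Abcc9 at -0.53. With miR-106b 1 of 6 was called down and none up, and after miR-93 2 of 5 and none. Endothelial markers summed to an RPKM between 4.04 and 5.32, macrophage markers to between 12.2 and 17.9, and epicardial markers to between 26.7 and 35.0. Of 4 tested macrophage markers 3 were called down and none up after miR-25, with a median of -0.69. Of 5 tested with the other mimics, 1 was up and 1 down after miR-106b, and 2 up and 1 down after miR-93. Of 2 tested endothelial markers, 1 was up and 1 down after miR-25 and after miR-106b, and 1 up after miR-93. Of the 5 epicardial markers 1 was called up after miR-25, Upk3b at 1.74, and 1 down, Aldh1a2 at -1.19, with a median of 0.13, while 1 was called up after miR-106b and 2 after miR-93, with none down. No marker of these lists that was found was at 0 in any library. The part of cell composition in the folds of the members was not tested, and in bulk RNA a different number of cells of a type and a different amount of RNA per cell cannot be told apart.

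The genes with folds most like those of single members were taken as the 3 nearest by Euclidean distance over the 3 log2 folds, among 4041 genes outside the members with RPKM of 10 or more in all libraries. Acta2 and Tagln lay 0.19 apart, and none of the 4041 genes was nearer to either. The nearest to Acta2 outside the members were Tmem43, Dap and Slc4a3, at 0.31, 0.38 and 0.40. For Tagln they were Spp1, Tmem43 and Lxn, at 0.25, 0.31 and 0.39, with Spp1 at a log2 fold of 1.57 after miR-25. For Srf, which differed little between libraries, Ascc3, Ctsb and Sms lay at 0.02, 0.05 and 0.05. The folds share the control library, and a small distance is a description of these 4 libraries only.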

How the data were processed

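Per the methods and labels, the authors checked reads with FASTQC, trimmed adaptors with Cutadapt, aligned with STAR (version 2.7) to the rat genome Rnor 6.0, rounded gene counts and made the deposited RPKM values with edgeR. The counting program is not given in the sources used here. Values of the 4 per-sample files were identical to those of the whole table. Library sizes implied by the RPKM values came out as non-whole numbers, and listed genes held 60.4% to 66.9% of them. Whole reads were recovered for all 15731 genes from ratios of RPKM values between libraries, with reads of 654 genes multiplied by a common factor so that gene lengths came out whole. The recovery was tested on data simulated from the recovered reads, gene lengths and library sizes. Such a test shows only whether the steps work under that model, not whether the recovered reads are the true ones. No test between conditions was possible with 1 library each. The RPKM limit of 1.0 and the 1.3-fold cutoff follow the study's results text. Alternatives were a pseudocount of 1 RPKM, an RPKM limit of 2.0, no limit, a fold cutoff of 1.5, centring on the median gene and scaling to reads on listed genes. Named were the members, from each other list up to 4 genes with RPKM above 1.0 in all libraries and the largest absolute fold after any mimic, markers, and the 3 nearest genes of Acta2, Tagln and Srf, with exceptions stated. The members and lists were chosen with earlier results of these data known. Symbols listed more than once were left out of lists. Scripts ran under Python 3.11.15 with pandas 2.3.3 for tables, scipy 1.17.1 for intervals, numpy 2.4.6 and, for plots, matplotlib 3.10.9. A gene that the naming rule picked from the list of myosin light chain control is not reported here.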

Additional observations from a re-analysis of the deposited data

How the results depend on the processing

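No paired analysis was possible because each mimic has 1 library, and no library could be left out for the same reason. Of 36 counts of members under alternatives, 30 stayed within 1.5 times the reported count, including all after miR-25. With a fold cutoff of 1.5 no member was called up after miR-106b or miR-93, and 1 was called down after miR-93, the same count as with a pseudocount of 1 RPKM, with that pseudocount and no RPKM limit, and with scaling to reads on listed genes. Over all genes tested, the 1.5-fold cutoff gave 588 up and 647 down of 11296 after miR-106b. It gave 781 and 942 of 11280 after miR-93, and 1189 and 1538 of 11198 after miR-25. Calls over all genes thus fell as well, from the counts at 1.3-fold given above. Of 72 recomputed folds of members, 54 stayed within their counting interval and 18 moved outside it. No called fold changed sign, but these shifts were too small for that, and a pseudocount cannot change a sign.

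Of 180 counts for the other lists, 141 stayed within 1.5 times. At a fold cutoff of 1.5, other smooth muscle genes gave 3 down after miR-106b, 0 up after miR-93, and 3 up and 0 down after miR-25. MRTF-type SRF targets then gave 0 up and 2 down after miR-106b and 1 up and 1 down after miR-25, TCF-type targets 0 down after miR-106b and miR-25 and 0 up after miR-93, other cofactors 0 down after miR-106b and 1 after miR-93, and myosin light chain control 0 down after miR-106b and 1 up after miR-25. Scaled to reads on listed genes, other smooth muscle genes gave 2 up after miR-93 and 0 down after miR-25, MRTF-type targets 4 down after miR-106b and 4 up and 1 down after miR-25, TCF-type targets 0 down after miR-25, other cofactors 0 down after miR-106b and 1 after miR-93, and myosin light chain control 0 down after miR-106b and 2 up after miR-93. With a pseudocount of 1 RPKM, with or without the limit, other cofactors gave 0 down after miR-106b, other smooth muscle and TCF-type genes 0 up after miR-93, MRTF-type targets 1 up and TCF-type targets 0 down after miR-25, and without the limit TCF-type targets gave 2 down after miR-93. At an RPKM limit of 2.0, TCF-type targets gave 0 up after miR-93 and 0 down after miR-25, and MRTF-type targets 1 up after miR-25. With the pseudocount, all genes tested gave 1001 up and 1095 down after miR-106b, 1273 and 1443 after miR-93, and 1784 and 2191 after miR-25. Without the limit, the 15731 genes gave 1235 and 1282, 1585 and 1699, and 2186 and 2578 in the same order. At the RPKM limit of 2.0 these were 1065 and 1172 of 9930, 1347 and 1482 of 9905, and 1747 and 2121 of 9769. All-gene counts at 1.5-fold and after scaling are given above. The cause of the changes in the list counts was not tested. Among the members depth limits Mkl1 most, with 93 reads in the control library.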
